A study of Homo sapiens with 4 samples.

Results

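The data described here are the mRNA levels of the TGF-beta receptors, SMAD proteins and TGF-beta targets in A549 cells, an established human lung adenocarcinoma line. The members were chosen by symbol, 9 genes in all, and a gene counted as measured when 2 or more of the 4 arrays detected a probe of it (detection p under 0.01). Of the 9 genes, 7 had a kept probe, with 9 of their 14 probes kept, out of 10239 genes and 16561 probes kept in all. The cells were given either a double-stranded RNA that acts as the microRNA miR-509-3p (the mimic) or negative control mimics, both with Lipofectamine RNAiMAX, and RNA was taken after 24 hours. Each group had 2 Illumina bead arrays of biotin-labelled cRNA. The cells were untreated otherwise as far as the labels say, so the levels are those of A549 cells in medium with fetal bovine serum and no added TGF-beta is named. Whether the 2 arrays of a group came from separate cultures is not stated, so every p-value rests on the spread between arrays alone, and that spread may be technical.

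TGF-beta is secreted in a latent form and, once released, binds the type II receptor TGFBR2, which recruits and phosphorylates the type I receptor TGFBR1. The type I receptor phosphorylates SMAD2 and SMAD3, these join the common partner SMAD4, and the complex enters the nucleus and regulates transcription. SMAD6 and SMAD7 are inhibitory members that block receptors or their SMADs and are themselves induced by the pathway, and TGFBI is an extracellular matrix protein named for its induction by TGF-beta. In lung epithelial cells the pathway is known for growth arrest and for the change towards a mesenchymal state.

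The sequence of the mature microRNA is shown because its seed, bases 2 to 8 from the 5′ end, in capitals, is the part that pairs with target mRNAs. It is encoded identically at 3 loci on the X chromosome, of which MIR509-1 lies at chrX:147260550-147260571 on the minus strand (RefSeq, GRCh38.p14). Target sites in the members' mRNAs were not analysed here.
hsa-miR-509-3p: uGAUUGGUacgucuguggguag

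The members that respond to SMADs are shown with a stretch of their promoters. RefSeq (GRCh38.p14) gave 24 windows of 300 bases for the 9 genes, each with 250 bases before a transcription start and 50 after it. Both strands were searched for the palindrome GTCTAGAC, a DNA element bound by SMAD3 and SMAD4, for the shorter box CAGAC, which does not occur inside that palindrome, and for the GC box GGGGCGGGG, bound by SP1. The palindrome was found in 1 of the 24 windows, that of SMAD6, where it starts 12 bases before the start site, and in 0.203% of all 34943 promoter windows. The first of the 3 SMAD7 windows held 2 CAGAC boxes, 217 and 128 bases before the start site, a box that 45.3% of all windows hold. The TGFBI window held 1 GC box, 68 bases before the start site, as 15.7% of all windows did, and neither SMAD element. Neither motif was particular to the gene shown. Of the 24 windows, 9 held a CAGAC box, in TGFBR1, SMAD3 and SMAD7, and 4 held a GC box, in TGFBR1, SMAD6 and TGFBI. The capitals mark these matches, which are descriptions of the letters and not evidence of binding. The SMAD6 stretch is chr15:66702156-66702235 on the plus strand, the SMAD7 stretch is chr18:48951086-48951185 on the minus strand and the TGFBI stretch is chr5:136028908-136028987 on the plus strand.
SMAD6: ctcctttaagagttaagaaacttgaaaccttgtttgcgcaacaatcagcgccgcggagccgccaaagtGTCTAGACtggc
SMAD7: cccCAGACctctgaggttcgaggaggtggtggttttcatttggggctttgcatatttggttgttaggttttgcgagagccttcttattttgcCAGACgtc
TGFBI: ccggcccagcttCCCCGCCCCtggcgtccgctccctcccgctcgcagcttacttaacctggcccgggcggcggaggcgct

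The 4 arrays were alike in quality, with a median probe signal of 202 to 207 and 33.7% to 34.7% of probes detected, and their number limits the precision of every value. Of 14 epithelial and A549 marker genes, 9 were measured, with a summed linear normalized signal of 163509 and 165421 on the mimic arrays, against 179044 and 174984 on the control arrays. Of these 9, KRT7 (log2 fold change -0.91) and CDH1 (-0.29) fell, MUC1 (0.47) rose and 6 did not pass. The brightest of them, AKR1B10 and ALDH1A1, stood at -0.015 and 0.0022 and weigh most in the sum. The alveolar markers SFTPB, SFTPC, NKX2-1 and NAPSA were not detected on any array. Of 10 fibroblast markers 2 were measured, and their summed signal was 385 to 431 on the mimic arrays, against 259 to 270 on the control arrays, with COL1A2, COL3A1, DCN, LUM, PDGFRA and PDGFRB undetected. That rise was in THY1 (log2 fold change 0.95), as COL1A1 was at 0.01. The 1 measured endothelial marker of 9, ESAM, stood at 182 to 201 on the mimic arrays, against 400.4 to 426 on the control arrays, and PECAM1, CDH5 and VWF were undetected. The 4 measured leukocyte markers of 10 summed to 6967 to 7219 on the mimic arrays, against 4357 to 4589 on the control arrays, while PTPRC was undetected. Of these 4, CD68 (0.93) and CD14 (0.45) rose, while CD79A (0.24) and ITGAM (-0.42) did not pass, all as log2 fold changes. The part of these shifts in the results below was not tested.

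Among the members, SMAD3, SMAD4 and TGFBI fell in cells given the miR-509-3p mimic, each by less than 1.3-fold, and the other 4 measured genes did not pass the test. Levels are normalized log2 signals, and a gene passed at an adjusted p under 0.05 (limma with Benjamini-Hochberg adjustment over the 10239 genes). By that rule 3 of 7 members were called lower, where 16.5% of all genes were called lower, and 0 were called higher, where 18.0% of all genes were. At an unadjusted p under 0.05 the same limma fit gave 3 lower and 1 higher, where 21.3% of all genes were lower and 25.4% higher. In either direction 42.9% of the measured members and 34.4% of all genes were called. The median log2 fold change was -0.17 over the 7 members and 0.04 over all genes. With 7 members, these counts are a description and not a sign that the group differs from other genes.

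The ligand and the receptors come first. TGFB1, the main epithelial TGF-beta ligand, had 1 probe, and it was not well above background on any array, with a detection p of 0.795 and 0.786 on the mimic arrays, against 0.662 and 0.757 on the control arrays. TGFBR1, the type I receptor, likewise had 1 probe, with a detection p of 0.509 and 0.451 on the mimic arrays, against 0.697 and 0.717 on the control arrays. No fold is given for either gene, because both groups were below background. A probe below background does not show that the mRNA is absent.

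TGFBR2, the type II receptor that binds the ligand, was bright on all arrays. Its brighter kept probe read 13.26 and 13.29 on the mimic arrays, against 13.23 and 13.28 on the control arrays, so the groups overlapped. The log2 fold change was 0.03 ± 0.08 (estimate ± SE, n = 2 each, limma adjusted p = 0.808), with a 95% interval of -0.18 to 0.23. Its second kept probe read 13.00 and 12.81 on the mimic arrays, against 12.83 and 12.84 on the control arrays, a log2 fold change of 0.08 ± 0.10 (limma adjusted p over probes = 0.589, where 29.7% of the 16561 kept probes were called). Both estimates were negative with median scaling of the arrays, so no direction is given for this gene. A further probe was not detected on any array. The interval of the brighter probe leaves room for a change of up to about 0.2 on the log2 scale in either direction, and a p that misses the threshold does not show equal levels.

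**Figure D1:**
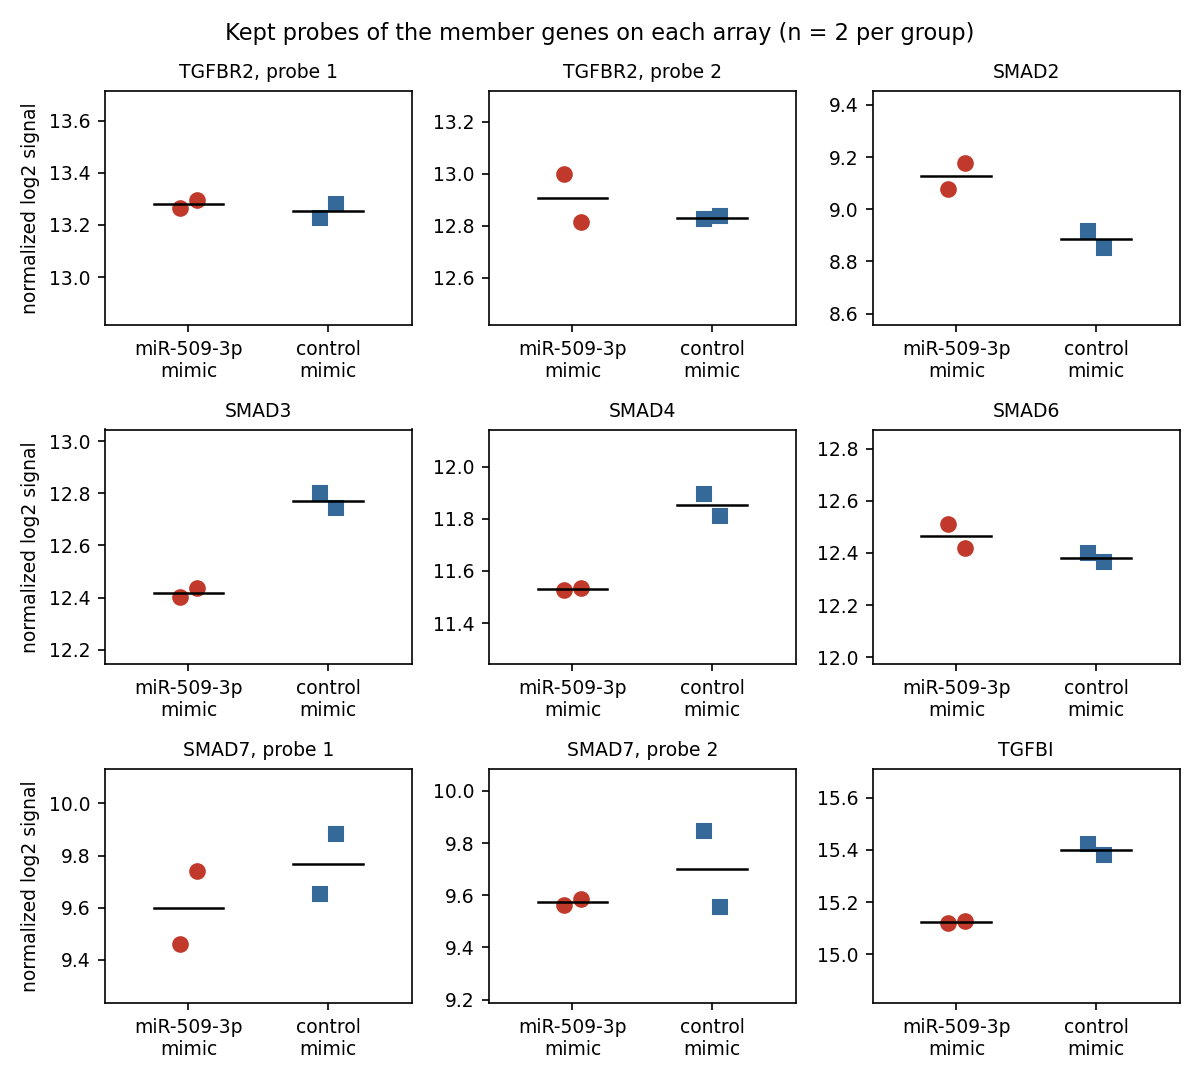
Normalized log2 signal of each kept probe of the members on each array, with red circles for the miR-509-3p mimic, blue squares for the control mimic and a black line for each group's mean. Every panel spans the same log2 range around its own mean, and the groups are apart for SMAD3, SMAD4, TGFBI, SMAD2 and SMAD6 and overlap for both TGFBR2 and both SMAD7 probes.

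Of the receptor-activated SMADs, SMAD3 fell and SMAD2 did not pass, with a positive log2 fold change. SMAD3, a receptor-activated SMAD that binds DNA directly, read 12.40 and 12.43 on the mimic arrays, against 12.80 and 12.74 on the control arrays. Both mimic arrays lay below both control arrays, and the scanner signals before normalization did as well, with 5166 and 5793 on the mimic arrays, against 7159 and 7565 on the control arrays. SMAD3 thus averaged 12.42 ± 0.02 with the mimic and 12.77 ± 0.04 with the control (SD, n = 2 each), and it fell by 0.35 ± 0.08 on the log2 scale, which is 1.28-fold lower (limma adjusted p = 0.0288, 95% interval -0.55 to -0.15). It had a single probe on the array, so no second probe checks this value.

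SMAD2, the other receptor-activated SMAD of this pathway, read 9.08 and 9.18 on the mimic arrays, against 8.92 and 8.85 on the control arrays. Both mimic arrays were higher than both control arrays, and the log2 fold change was 0.24 ± 0.08, with a 95% interval of 0.02 to 0.46. It did not pass after adjustment (limma adjusted p = 0.0882). Of its other 2 probes, 1 was detected on 1 control array only and 1 on no array, so the value rests on 1 probe.

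Within each array the log2 difference between SMAD3 and SMAD2 was 3.33 and 3.26 on the mimic arrays, against 3.88 and 3.89 on the control arrays, and thus differed by -0.59 between the groups. The levels of different probes are not comparable, so only the difference between groups can be read. An exact two-sided permutation test over the 4 arrays gave p = 0.333, which is the smallest this design allows and could not have passed, for each of the 3 SMAD pairs compared, and 0.333 after Benjamini-Hochberg adjustment. The same difference for SMAD4 minus SMAD2 changed by -0.56, whereas SMAD3 minus SMAD4 changed by -0.03.

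SMAD4, the common partner that all receptor-activated SMADs need for most transcription, read 11.53 and 11.54 on the mimic arrays, against 11.89 and 11.81 on the control arrays. The mimic arrays again lay below the control arrays, also before normalization, where the signals were 2898 and 3181 with the mimic, against 3912 and 3965 with the control. It averaged 11.53 ± 0.0047 with the mimic and 11.85 ± 0.06 with the control (SD, n = 2 each) and fell by 0.32 ± 0.08, or 1.25-fold (limma adjusted p = 0.0384, 95% interval -0.53 to -0.11). SMAD4 also had only 1 probe.

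The inhibitory SMADs did not pass. SMAD6, which mainly restrains bone morphogenetic protein signalling and carries the palindrome shown above, read 12.51 and 12.42 on the mimic arrays, against 12.40 and 12.37 on the control arrays. The groups did not overlap after normalization, whereas the scanner signals before it did, with 5510 and 5702 on the mimic arrays, against 5511 and 5790 on the control arrays. The log2 fold change was 0.08 ± 0.08 (limma adjusted p = 0.468, 95% interval -0.13 to 0.29). It was 0.037 without mimic 1, 0.13 without mimic 2 and 0.0010 with median scaling.

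SMAD7, which recruits ubiquitin ligases to the activated type I receptor and is a rapid transcriptional target of the pathway, read 9.46 and 9.74 on the mimic arrays, against 9.65 and 9.88 on the control arrays. The arrays of each group differed by more than the group means did, and the log2 fold change was -0.17 ± 0.14 (limma adjusted p = 0.403, 95% interval -0.54 to 0.21). It was -0.028 without mimic 1, -0.31 without mimic 2, -0.28 without control 1 and -0.27 without control 2. The second SMAD7 probe read 9.56 and 9.58 on the mimic arrays, against 9.84 and 9.55 on the control arrays, with a log2 fold change of -0.13 ± 0.12 (limma adjusted p over probes = 0.482), and that probe was at 0.020 without control 1 and -0.27 without control 2. SMAD7 was the member with the widest spread between arrays, and both probes leave room for changes as large as that of SMAD3.

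TGFBI, the secreted matrix protein, was the brightest probe among the members and read 15.12 and 15.13 on the mimic arrays, against 15.42 and 15.38 on the control arrays. Its scanner signals were 33703 and 36010 with the mimic, against 43455 and 45501 with the control, so the groups were apart before normalization too. It fell by 0.28 ± 0.07 on the log2 scale, or 1.21-fold (limma adjusted p = 0.0493, 95% interval -0.47 to -0.08). The adjusted p lies just under the threshold.

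**Figure D2:**
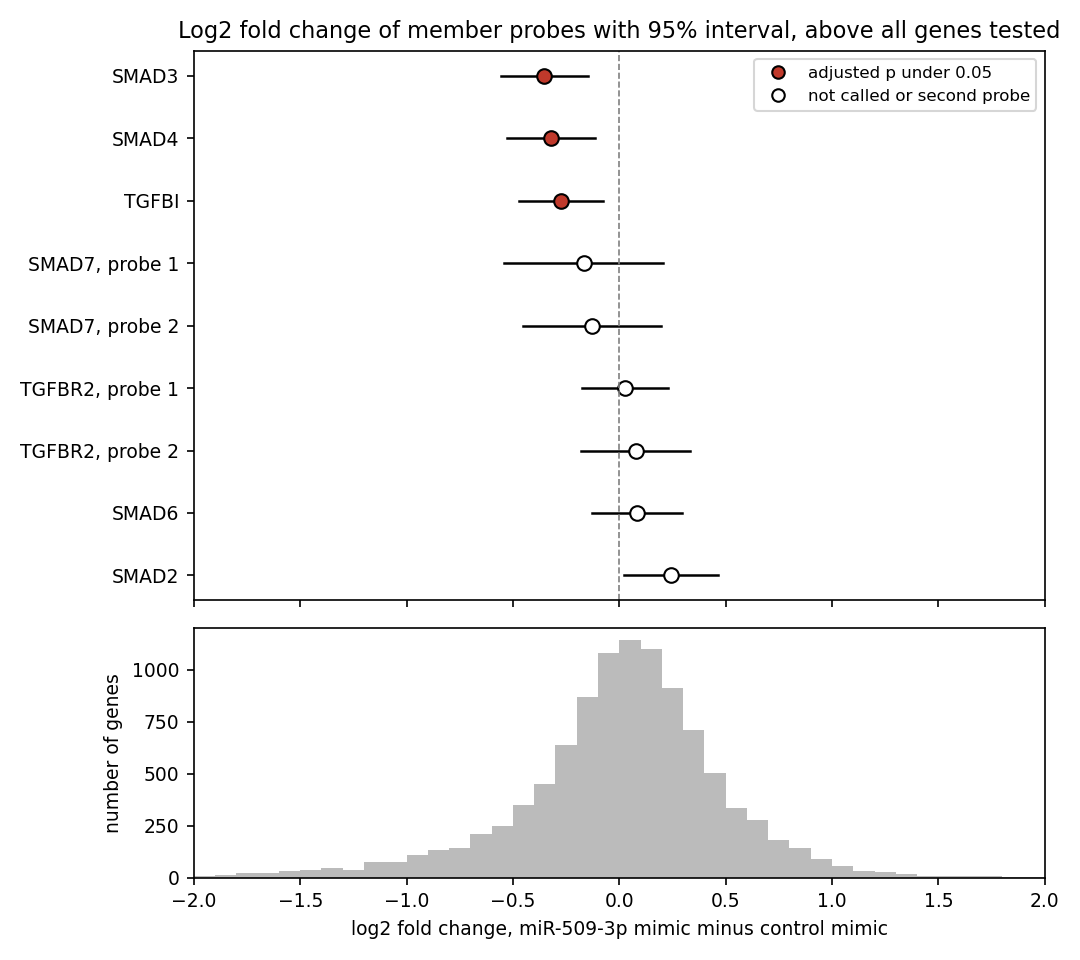
Log2 fold change of each kept member probe, mimic minus control, with its 95% interval (top), above the distribution of the log2 fold changes of the 10239 genes tested (bottom). Filled points mark SMAD3, SMAD4 and TGFBI, the members called, whose values of -0.35, -0.32 and -0.28 lie within the central bulk of all genes, and the few genes beyond the ends of the axis are not drawn.

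These falls were small beside those of other genes. The median absolute log2 fold change was 0.25 over all genes and 0.67 over the genes called lower. Of the genes called lower, 8.37% had a smaller change than SMAD3, 4.57% a smaller change than SMAD4 and 0.119% a smaller change than TGFBI. The groups did not overlap in 5 of the 7 measured members, where 72.9% of all genes had no overlap. Of the 7 measured members, 3 were lower with the mimic without overlap, where 32.8% of all genes were.

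Each array was also left out in turn, which leaves 1 group with a single array that is assumed to vary like the other group, and fewer degrees of freedom. Without mimic 1, mimic 2, control 1 or control 2, SMAD3 kept a log2 fold change of -0.38 to -0.32 but its limma adjusted p was 0.0736 to 0.139. The matching ranges were -0.36 to -0.28 with a limma adjusted p of 0.0789 to 0.158 for SMAD4, and -0.30 to -0.25 with 0.111 to 0.184 for TGFBI. A call was thus made for 0 of the 7 members in each of these 4 limma fits, in which 1 to 3 members were lower at an unadjusted p under 0.05. Over 15 alternatives in all, the sign of these 3 genes held each time, and the calls held in 9 for SMAD3, 7 for SMAD4 and 7 for TGFBI.

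**Figure D3:**
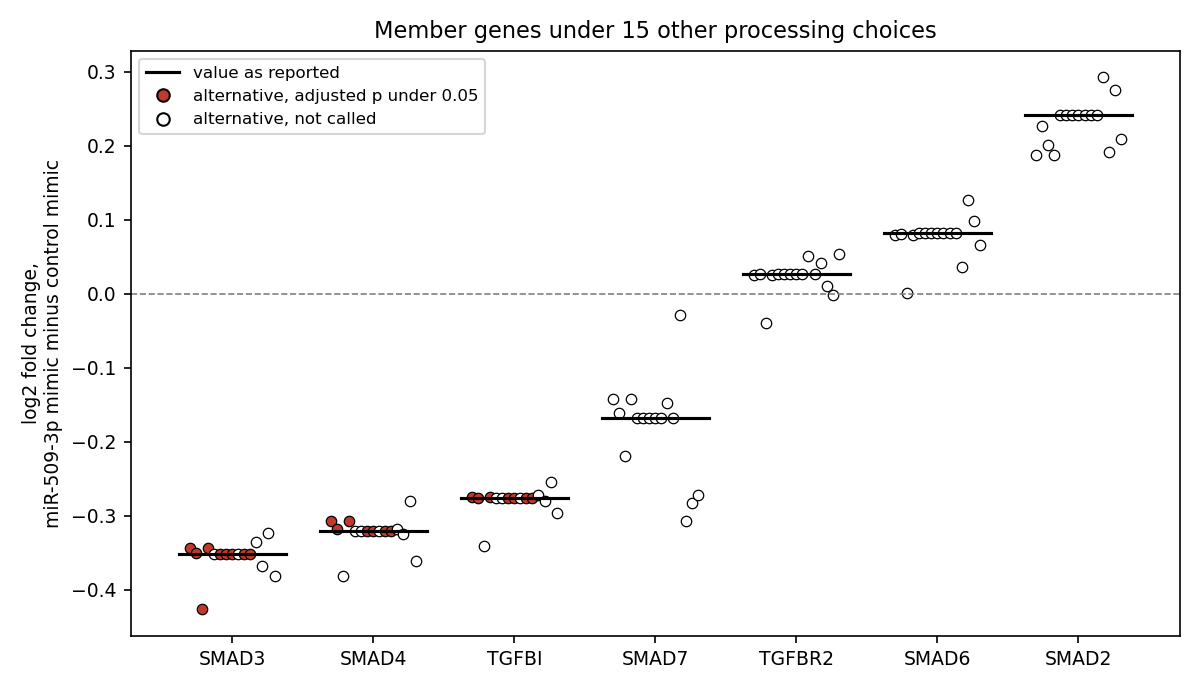
Log2 fold change of the 7 measured members as reported (black lines) and under 15 other processing choices (points, filled where the adjusted p was under 0.05). The choices without background correction and with the authors' deposited values gave the same value for each member. SMAD3, SMAD4 and TGFBI stay below 0 at every point, SMAD2 and SMAD6 stay above 0, and TGFBR2 lies on both sides of 0.

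The other genes of the pathway were read from lists written for this description, which were chosen with earlier results of these data known. Of 95 such genes 61 were measured, and 21 were called lower and 5 higher while 35 did not pass, so 42.6% were called, against 34.4% of all genes. Their median log2 fold change was -0.09, against 0.04 over all genes. Because of how the lists were chosen, these counts and those by list below are descriptions. They are not a sign that a list differs from other genes. A few genes stand in more than 1 list, and 5 of those were measured.

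Among 9 measured ligands and latency proteins, 5 fell and 0 rose (limma), where 16.5% of all genes fell and 18.0% rose. At an unadjusted p under 0.05 these limma counts were 6 and 0, where the shares of all genes were 21.3% and 25.4%. LTBP2, a microfibril protein of the latent TGF-beta binding family, read 6.37 and 6.09 on the mimic arrays, against 7.55 and 7.84 on the control arrays. Neither mimic array measured it well above background, so the filter kept it through the control arrays alone. Both mimic arrays read below both control arrays, which that filter favours, so this adds no support. The fitted log2 fold change of -1.46 ± 0.16 (limma adjusted p = 0.00566) depended on the background correction and was -0.73 without it. The authors' deposited values also gave -0.73 but are no separate check, as they nearly match that setting. No fold is given, since the size of the fall changed with that choice.

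BMP6, a bone morphogenetic protein, read 8.58 and 8.47 on the mimic arrays, against 9.65 and 9.67 on the control arrays, and fell by 1.13 ± 0.08. TGFB2, the second TGF-beta ligand gene, read 8.26 and 8.06 on the mimic arrays, against 8.81 and 8.73 on the control arrays, and fell by 0.61 ± 0.10. FURIN, the protease that cleaves the TGF-beta precursor, fell by 0.75 ± 0.15, or by 0.40 with no background correction. INHBB, an activin subunit named after its values were seen, fell by 0.57 ± 0.08. The call for TGFB2 was lost without any 1 array (limma adjusted p of 0.0508 to 0.0777), that for FURIN without mimic 1, mimic 2 or control 2 (0.0580 to 0.121), and that for INHBB without mimic 1 or mimic 2 (0.0573 and 0.0680).

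Among 8 further receptors and co-receptors measured, 2 fell and 0 rose (limma), where 16.5% of all genes fell and 18.0% rose. At an unadjusted p under 0.05 these limma counts were 3 and 0, where 21.3% of all genes were lower and 25.4% higher. BMPR2, the type II receptor of bone morphogenetic proteins, read 8.29 on both mimic arrays, against 9.59 and 9.64 on the control arrays. It fell by 1.33 ± 0.07, or 2.51-fold (limma adjusted p = 0.00228), and its second kept probe fell by 1.06 ± 0.09. ACVR2A, a type II activin receptor, fell by 0.62 ± 0.10, but by 0.36 with no background correction. Its call was lost without mimic 1, mimic 2 or control 1 (limma adjusted p of 0.0519 to 0.0861), and its second, dim probe did not pass, at a log2 fold change of -0.25 ± 0.21.

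SMAD5, a receptor-activated SMAD of the bone morphogenetic protein branch, was the 1 measured gene of 3 other SMADs. It read 10.50 and 10.38 on the mimic arrays, against 11.40 and 11.34 on the control arrays, and fell by 0.93 ± 0.08, or 1.91-fold (limma adjusted p = 0.00435). Both mimic arrays were below both control arrays, as in 32.8% of all genes. SMAD5 was named for its called fall, so this adds no support. Its second kept probe, near background, did not pass, at -0.61 ± 0.18 (limma adjusted p over probes = 0.0718).

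Among 24 measured regulators of receptors and SMADs, 6 fell, 3 rose and 15 did not pass. The share called was 37.5%, near the 34.4% of all genes, so the count is no result about the list, and the genes below are given one by one. PJA1, a RING ubiquitin ligase, read 8.04 and 7.96 on the mimic arrays, against 9.44 and 9.67 on the control arrays, and fell by 1.56 ± 0.11. TRIM33, a ubiquitin ligase that binds SMADs in the nucleus, fell by 1.13 ± 0.10, and its second kept probe fell by 1.51 ± 0.10. PMEPA1, a membrane protein that sequesters SMAD2 and SMAD3 and is induced by TGF-beta, read 11.57 and 11.60 on the mimic arrays, against 12.51 and 12.61 on the control arrays. It fell by 0.98 ± 0.08, and its second kept probe fell by 1.05 ± 0.10. Each of these 3 genes had both mimic arrays below both control arrays, as did 32.8% of all genes. They were named for their large called falls, so this adds no support.

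TGIF2, a homeobox repressor that works with SMADs, read 8.63 and 8.51 on the mimic arrays, against 7.93 and 7.79 on the control arrays, and rose by 0.71 ± 0.10, or by 0.47 with no background correction. The ubiquitin ligase gene WWP1 and the deubiquitinase gene USP9X, named after their values were seen, rose by 0.42 ± 0.08 and 0.36 ± 0.08. The calls for WWP1 and USP9X were lost without any 1 array (limma adjusted p of 0.0592 to 0.134 over both), and that for TGIF2 without mimic 1 or mimic 2 (0.0529 and 0.0661).

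Among 24 measured transcripts listed here as induced by TGF-beta, 10 fell, 2 rose and 12 did not pass, where 16.5% of all genes fell and 18.0% rose. Their median log2 fold change was -0.15, against 0.04 over all genes. As the list was chosen with earlier results of these data known, these counts are a description only. LTBP2 and PMEPA1, described above, are counted here too. So are ID1, ID2 and ID3, of which ID2 fell, by 0.91. Whether TGF-beta induces or represses the listed genes in these cells, the ID genes among them, was not tested. A fall is therefore not read as a weaker response to TGF-beta. TAGLN, an actin-binding protein of contractile cells, read 7.84 and 7.72 on the mimic arrays, against 8.84 and 9.14 on the control arrays, and fell by 1.21 ± 0.13. Its call was lost without mimic 2 (limma adjusted p = 0.0517). TPM1, a tropomyosin, read 12.75 and 12.80 on the mimic arrays, against 13.75 and 13.89 on the control arrays, and fell by 1.05 ± 0.09. The other bright TPM1 probe fell by 1.10 ± 0.08, while its 2 dim probes did not pass, with log2 fold changes of -0.14 ± 0.27 and -0.54 ± 0.19.

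FSTL3, a secreted protein that binds activins, read 9.80 and 9.92 on the mimic arrays, against 10.83 and 10.91 on the control arrays, and fell by 1.01 ± 0.09. The transcripts that rose were TUFT1, with 0.52 ± 0.08, and THBS1, a matrix protein that can activate latent TGF-beta, with 0.54 ± 0.14, both named after their values were seen. The call for THBS1 was lost without any 1 array (limma adjusted p of 0.0519 to 0.183) and that for TUFT1 without mimic 1 or mimic 2 (0.0815 and 0.0825). TGF-beta target genes are also controlled by other pathways, and the labels name no TGF-beta treatment, so the levels are not a readout of this pathway alone.

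**Figure D4:**
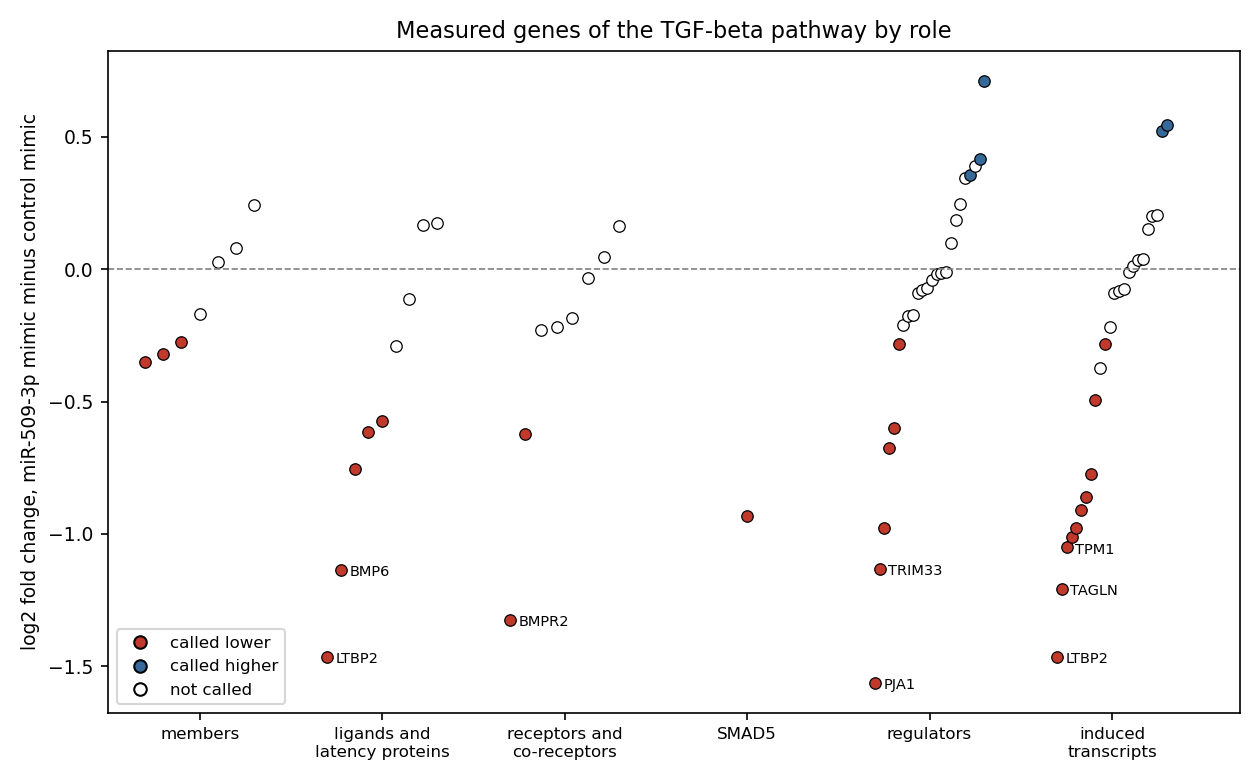
Log2 fold change, mimic minus control, of every measured member and of the other measured pathway genes by role, each point a gene (red called lower, blue called higher, white not called). The members lie between -0.35 and 0.24, whereas BMPR2, BMP6, LTBP2, PJA1, TRIM33, TAGLN, TPM1 and FSTL3 lie below -1.0. A gene in 2 lists is drawn in both.

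Of the 26 called genes of these lists, 11 were called under every alternative run, and all 26 kept their direction. Those described above that held throughout were BMP6, BMPR2, SMAD5, PJA1, TRIM33, PMEPA1, TPM1, FSTL3 and ID2. None of the 3 called members did so. LTBP2 is among the 11, but it was not in the fit that required detection on all 4 arrays. LTBP2 and RNF111, a regulator called lower, were detected on the control arrays only. The filter thus kept both through the group where they were high, and both are in the counts of genes that fell.

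The genes whose pattern over the 4 arrays was most like that of SMAD3, the member with the widest change, were GTF2IP1, ABCC4 and TYMS. Likeness was the Euclidean distance between the 4 log2 values, each gene centred on its own mean, and these genes lay at 0.014, 0.026 and 0.027. Their log2 fold changes were -0.34, -0.34 and -0.35. GTF2IP1 is a pseudogene with near-identical copies, so its signal may not be its own.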

How the data were processed

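Arrays of the miR-509-3p mimic and of the control mimic, 2 each, were grouped by their labels. The authors deposited a linear probe intensity, not normalized between arrays, and a detection p-value for each probe. The submitters' processing notes name GenomeStudio 2009.2. The authors also deposited log2 values for 19069 probes (median 9.42 on each array), made by steps that no source used here states. These values served as an alternative. For the members they gave the same log2 fold changes as the fit without background correction, with SMAD3 at -0.344 in both. These settings are therefore not separate checks.

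In limma 3.58.1 (R 4.3.3), neqc corrected background (normexp with detection p-values, offset 16), quantile normalized the arrays and took log2. Kept were the 16561 of 47320 probes with a detection p below 0.01 on 2 of 4 arrays. Of all probes 30113 had 1 gene name, 8 several and 17199 none, and 30092 names matched RefSeq (GRCh38.p14). The brightest kept probe stood for its gene. lmFit and eBayes, without covariates, used all kept probes (2 residual and 2.48 prior degrees of freedom), with Benjamini-Hochberg adjustment over 10239 genes, or over kept probes for second probes.

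The members and gene lists were chosen with earlier results of these data known. Outside the members, up to 4 called genes per list with the largest fold were named, with exceptions marked, and the 3 genes most like the member with the widest change. No slide or scan date was at hand, so batches went untested. Alternatives changed the background, scaling, filter, variance model and probe averaging, added a replicate block, or left out 1 array. Tested on simulated data for this comparison (10239 genes), the fit called 2 of 50 genes with a log2 change of 0.3, 11 of 50 at 0.5, 48 of 50 at 1, 50 of 50 at 2, and 5 of 10039 unchanged genes. Far more genes were called in the real data (34.4%) than were changed in the simulation. The adjustment depends on that share, so these rates do not carry over to the real data. Figures were drawn with matplotlib 3.10.9.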

Additional observations from a re-analysis of the deposited data

How the results depend on the processing

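Without background correction, with an offset of 50, with the authors' deposited values, with detection on all 4 arrays, with averaged probes, with a trended robust variance and with the variance shrunk over 1 probe per gene (added after the data were seen), SMAD3, SMAD4 and TGFBI were called. A trended robust variance called 9 pathway genes higher, against 5 as reported. With median scaling, 1 member was called lower and 3 pathway genes higher. SMAD4 was then at -0.38, TGFBI at -0.34 and TGFBR2 at -0.039, and the second TGFBR2 probe at -0.0039. With detection p under 0.05 on 2 arrays, 1 member was called, as SMAD4 (-0.32) and TGFBI (-0.28) were lost. Without a filter 768 genes were called higher and 961 lower, 0 members and 1 pathway gene higher. SMAD3 (-0.35), SMAD4 (-0.32) and TGFBI (-0.28) kept their values and were not called, where both the number of genes tested and the standard errors were larger (SMAD3 0.097, against 0.076 as reported). The labels do not say that a number marks a shared batch. The deviations of same-numbered arrays had r = -0.057 across genes. With 2 arrays a group, that value cannot show whether same-numbered arrays shared a batch. With the replicate block the limma fit called 0 members and 2 pathway genes higher. SMAD3 (-0.35), SMAD4 (-0.32) and TGFBI (-0.28) were not called by it, with 3 members lower at an unadjusted p under 0.05. The block left 1306 genes called higher and 1328 lower, against 1839 and 1685 as reported. Leaving out each array in turn gave 308 to 1144 genes higher, 606 to 1088 lower, 0 members called, 0 to 2 pathway genes higher and 11 to 17 lower. SMAD3 then ranged from -0.38 to -0.32, SMAD4 from -0.36 to -0.28, TGFBI from -0.30 to -0.25 and TGFBR2 from -0.00084 to 0.054. The second TGFBR2 probe ranged from -0.017 to 0.17 and the second SMAD7 probe from -0.27 to 0.020. Where no construction is named, the cause was not tested. Falls of the size seen in the members lay near the smallest that 2 arrays a group could call.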
